A study of Arabidopsis thaliana with 6 samples.

Results

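Mitochondrion-encoded transcripts were followed in whole *Arabidopsis thaliana* seedlings that carry the *fbp7-3* mutation and in their wild type. The genes were chosen by their place in the genome. A probe set was a member if the array annotation lists 1 gene for it and that gene's symbol or synonym lies on the RefSeq mitochondrial chromosome, with no nuclear or plastid match. Of 22746 probe sets that are not controls, 23 met this rule, and they stand for 16 genes. The tested plants were *fbp7-3* seedlings (3 samples), which are mutated in the F-box protein gene *FBP7* and have the Nossen (No-0) background. They were set against No-0 wild type seedlings (3 samples), and all were 5 days old and grown in light. Each sample was about 80 mg of tissue, about 6 µg of its total RNA was labelled, and it went to 1 Affymetrix ATH1 array. F-box proteins are the parts of SCF ubiquitin ligases that bind the proteins to be tagged. Samples were lysed separately, per the labels, which do not mention separate growth; p-values therefore measure the spread between these samples, which may be technical. The kind of mutation in *fbp7-3* and the number of plants per sample were not stated.

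The plant mitochondrial genome keeps a small set of genes for the respiratory chain, for the ATP synthase, for cytochrome c maturation, for the mitochondrial ribosome and for a few other steps. All other mitochondrial proteins are made from nuclear genes and imported, so each respiratory complex except complex II joins subunits of both genomes in Arabidopsis. Many mitochondrial transcripts are edited from C to U, and their group II introns must be spliced out. *nad1*, *nad2* and *nad5* are even joined from separately transcribed pieces by trans-splicing. Stable poly(A) tails are not a feature of plant mitochondrial mRNAs, in which such tails mark RNA for decay, and the labelling kit named in the design text starts from oligo(dT). How far that affected the signals was not tested.

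The members cover only some of these roles. *nad* genes for subunits of complex I, the NADH dehydrogenase, held 15 probe sets of 8 genes, and 7 of the 15 were for *nad1*. Complex IV, the cytochrome c oxidase, had *cox1* and *cox2*. Cytochrome c maturation, which attaches haem to c-type cytochromes, had *ccmB*, *ccmFC*, *ccmFN1* and *ccmFN2*, listed on the array as *ccb206*, *ccb452*, *ccb382* and *ccb203*. The other two members were *matR*, which codes for an intron maturase, and *mttB*, a protein translocation gene that the array annotation names *orfX*. RefSeq holds 32 different mitochondrial protein-coding symbols. Of these, 11 more appear only on probe sets that list another gene too, and *atp4*, *atp6*, *atp8*, *ccmC* and *nad3* are on no probe set listed in the table used here. By annotated symbol, no open reading frame of unassigned function was among the members, since *orfX* is *mttB*, so a comparison with such genes could not be made. Where the probes of each set lie in the genome was not checked.

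None of the 23 probe sets passed in the comparison of mutant with wild type (limma, Benjamini-Hochberg adjusted p under 0.05 over 22746 probe sets). Their lowest adjusted p was 0.334, and 1 of 23 had an unadjusted p under 0.05, where 10.3% of all probe sets did. Over all probe sets 75 passed, or 0.33%. The log2 change, mutant minus wild type, was above 0 for 14 and below 0 for 9 of the members, with a median of 0.15. Over all probe sets 51.7% lay above 0 and the median was 0.01. All log2 changes were computed from log2(signal + 16), so those of dim genes are understated. Single members were not measured sharply: the 95% confidence interval reached 0 for 22 of 23, and its median half-width was 0.60, so that for 5 members it ran past a log2 change of 1 in at least 1 direction. In RNA of whole seedlings, a difference in the share of cells rich in mitochondria, in mitochondrial genomes per cell and in RNA per genome cannot be told apart.

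**Figure D1:**
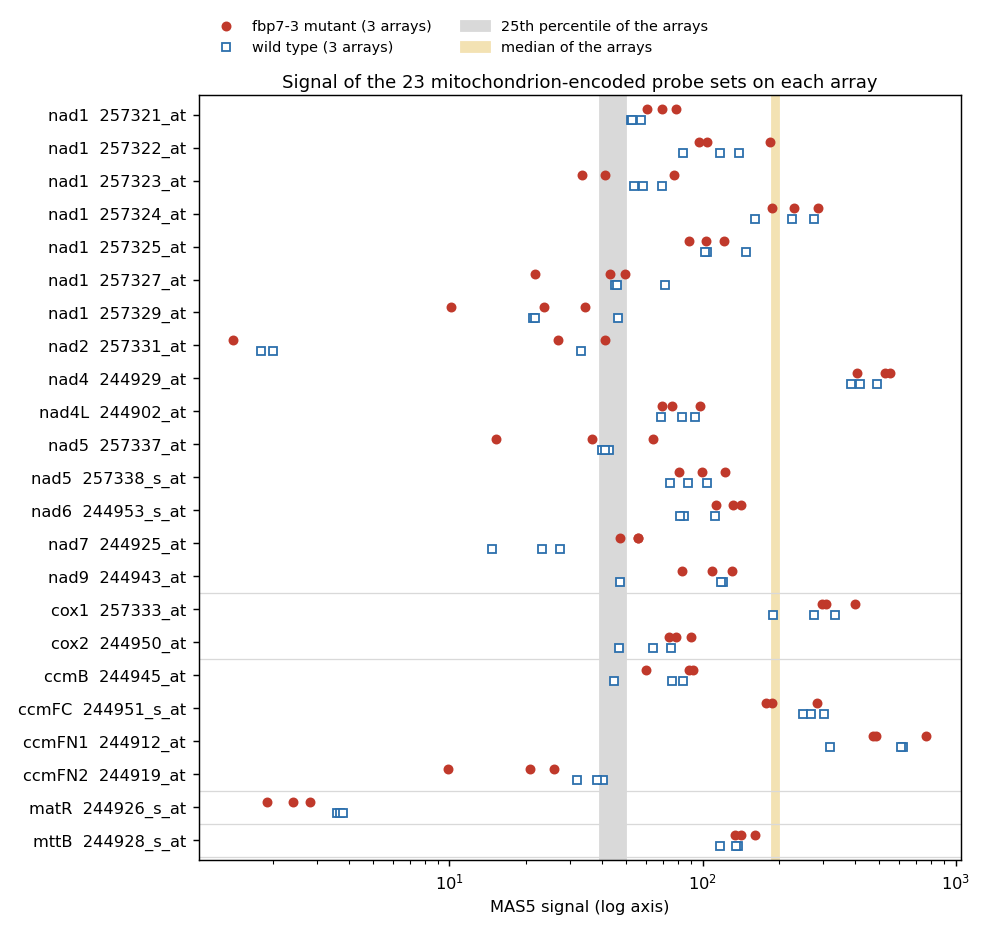
MAS5 signal (log axis) of the 23 mitochondrion-encoded probe sets on each array. Filled circles are the 3 fbp7-3 mutant arrays and open squares the 3 wild type arrays. The bands give the range over the 6 arrays of the 25th percentile (39.2 to 49.7) and of the median (188.7 to 200.7) of all probe sets. In *nad7* every mutant array lies above every wild type array, and in *ccmFN2* every one lies below.

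Most members lay below the middle of the arrays. Of 23, 18 were above the array median (188.7 to 200.7 over the arrays) on no array. Under the 25th percentile (39.2 to 49.7) were 5 on 4 or more arrays and 15 on no array. A filter that left out the lowest 25% by mean log2 value kept 18 of the 23, and the 5 it left out were *nad7*, *ccmFN2*, *matR*, *nad2* and the *nad1* probe set 257329_at. Signals of different probe sets are not compared here, since each has its own affinity. The spread within groups had a median coefficient of variation of 21.7% over the members, against 16.6% over the 69 plastid-encoded probe sets. It ran from 9.37% for *mttB* to 108% for *nad2*.

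Among the complex I genes, *nad7*, which codes for a subunit of the arm that reaches into the matrix, stood farthest apart between the groups. Its signal was 55.5, 55.5 and 47.1 on the mutant arrays, against 27.4, 14.7 and 23.3 on the wild type arrays. The groups did not overlap, and the means were 52.7 ± 4.85 in the mutant, against 21.8 ± 6.48 in the wild type (SD, n = 3 each). The log2 change was 0.87 ± 0.30 (SE) with a limma adjusted p of 0.334, and the two-sided exact permutation p was 0.1, the smallest that 3 against 3 allows. The wild type signals and that of mutant replicate 3 lay below the 25th percentile of their arrays. On mutant replicates 1 and 2 that percentile was 42.9 and 40.5, not far under the signals. Over the alternative settings the change ran from 0.45 to 1.27 and stayed above 0.

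*nad6* codes for a subunit of the membrane arm of complex I. It had 132.0, 113.4 and 141.6 on the mutant arrays, against 84.4, 81.4 and 111.6 on the wild type arrays, again without overlap, although mutant replicate 2 and wild type replicate 3 nearly met. Its log2 change was 0.42 ± 0.23 (adjusted p = 0.568). *nad4*, a further membrane arm subunit, had 552.7, 406.0 and 528.0 on the mutant arrays, against 385.0, 488.1 and 419.2 on the wild type arrays. The groups overlapped, and the change of 0.19 ± 0.14 had an interval of −0.13 to 0.51, among the narrowest of the members. *nad9*, which like *nad7* belongs to the matrix arm, had 108.6, 82.7 and 131.0 in the mutant, against 47.4, 121.0 and 117.8 in the wild type. Its groups overlapped widely and wild type replicate 1 lay far below the other two wild type arrays, and its change of 0.21 became −0.15 without that array.

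*nad4L*, *nad5* and *nad2* had overlapping groups. *nad4L* had 80.9 ± 14.8 in the mutant, against 81.7 ± 12.4 in the wild type, a log2 change of −0.016 ± 0.26. The trans-spliced *nad5* had a pair of probe sets, which lay on opposite sides of 0. Probe set 257338_s_at had 101 ± 20.8 in the mutant, against 88.9 ± 15.1 in the wild type, while 257337_at had 38.4 ± 24.2 in the mutant, against 41.3 ± 1.42 in the wild type. In 257337_at the mutant arrays were far apart, at 36.5, 15.3 and 63.5, and the wild type arrays were close together, at 42.8, 40.0 and 41.0. *nad2* had 41.1, 1.4 and 26.8 in the mutant, against 33.0, 2.0 and 1.8 in the wild type, and lay under the 25th percentile on all 6 arrays. Its change of 0.48 ± 0.52 was smaller than its own error.

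The 7 probe sets annotated to *nad1* did not move together. Log2 changes were above 0 for 3 and below 0 for 4, from −0.39 ± 0.33 (257327_at) to 0.29 ± 0.27 (257321_at), with a median of −0.15. Of these 7 probe sets, 257321_at was the one whose groups did not overlap. It had 60.3, 69 and 78.8 in the mutant, against 52.0, 52.5 and 56.9 in the wild type. Probe set 257324_at, the brightest, had 230.6, 188.9 and 287.1 in the mutant, against 161.8, 226.1 and 274.9 in the wild type, and the ranges overlapped. In 257323_at the mutant arrays read 77.1, 41.2 and 33.3 and enclosed the wild type arrays at 53.7, 69.2 and 58.3. Probe sets 257322_at, 257325_at and 257329_at, had changes of 0.13 ± 0.28, −0.15 ± 0.24 and −0.25 ± 0.37. After the group means were taken out, the 21 pairs of *nad1* probe sets had a median correlation of 0.14 over the 6 arrays, with pairs as low as −0.91 and as high as 0.92. Whether this spread differs from noise was not tested. Which exon, intron or other stretch of *nad1* each of them matches is not given in the table used here. The 8 other complex I probe sets had a median log2 change of 0.20, with 6 above 0.

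*cox1* and *cox2* code for the catalytic core of cytochrome c oxidase. *cox1* had 308.6, 295.7 and 400.4 on the mutant arrays, against 189.2, 332.8 and 276.2 on the wild type arrays, with mutant replicate 3 highest and wild type replicate 1 lowest. *cox2* had 73.7, 89.8 and 78.9 in the mutant, against 46.9, 75.2 and 63.6 in the wild type, and overlapped by a single pair of arrays. The changes were 0.34 ± 0.20 for *cox1* and 0.33 ± 0.27 for *cox2*, with adjusted p values of 0.62 and 0.744. Both stayed above 0 under every alternative setting, but without wild type replicate 1 they were 0.12 for *cox1* and 0.18 for *cox2*, and without mutant replicate 3 *cox1* was at 0.21.

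The 4 cytochrome c maturation genes were split, with 2 above and 2 below 0. *ccmFN2* and *ccmFC* code for parts of the haem lyase. *ccmFN2* had 20.9, 9.9 and 25.9 on the mutant arrays, against 40.6, 38.2 and 31.8 on the wild type arrays, so each mutant array lay below each wild type array. Its log2 change was −0.62 ± 0.32 (limma adjusted p = 0.549, two-sided exact permutation p = 0.1), at signals near or under the 25th percentile. *ccmFC* had 178.3, 188.9 and 283.1 in the mutant, against 248.8, 301.4 and 268.0 in the wild type, where mutant replicate 3 fell within the wild type range. Its change was −0.33 ± 0.19 (adjusted p = 0.59).

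*ccmFN1*, which codes for the remaining piece of the haem lyase, had 763.8, 473.1 and 484.8 in the mutant, against 318.4, 620.0 and 608.5 in the wild type. Its change of 0.17 ± 0.25 was −0.13 without wild type replicate 1 and −0.044 without mutant replicate 1. *ccmB*, a subunit of the transporter of this pathway, had 79.9 ± 17.5 in the mutant, against 68.1 ± 20.4 in the wild type, a change of 0.20 ± 0.30 that lay at −0.014 without wild type replicate 2. The 3 haem lyase genes thus had changes on both sides of 0, none of which passed.

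*matR* had signals of 2.8, 1.9 and 2.4 in the mutant, against 3.6, 3.7 and 3.8 in the wild type. These groups did not overlap, but all 6 arrays lay under the 25th percentile and the change was −0.10 ± 0.30. *mttB*, related to the bacterial TatC protein, varied least, with 142.5, 134.1 and 161.9 in the mutant, against 117.0, 137.7 and 136.0 in the wild type, and a change of 0.15 ± 0.20. In all, the groups did not overlap for 5 of 23 members, or 21.7%, where 15.5% of all probe sets showed this. Of these 5, the mutant arrays were higher in *nad7*, *nad6* and *nad1* 257321_at (8.11% of all probe sets) and lower in *ccmFN2* and *matR* (7.39%). Of the 5 members that the filter on dim signals left out, 3 were in this group.

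**Figure D2:**
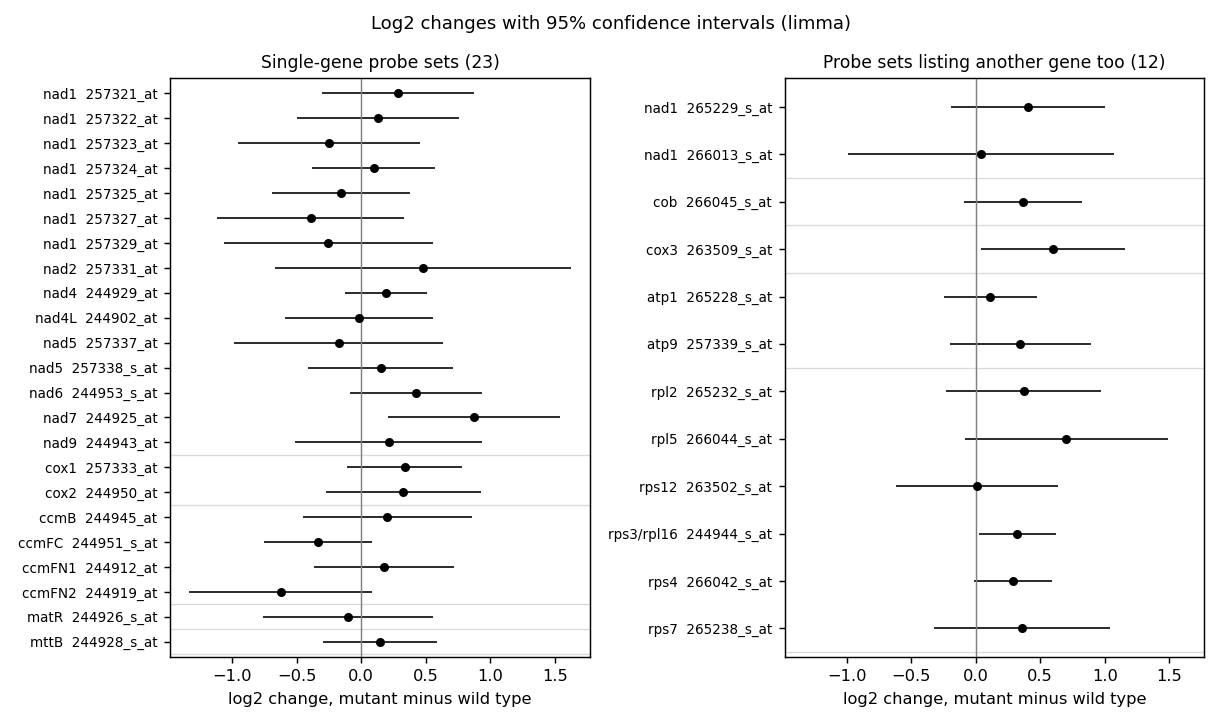
Log2 change, mutant minus wild type, of the 23 single-gene mitochondrial probe sets (left) and of the 12 mitochondrial probe sets that list another gene too (right). Points are limma estimates on the log2(signal + 16) scale and bars their 95% confidence intervals. On the left 14 of 23 points lie above 0, and on the right 12 of 12 (10 of 12 after quantile normalization).

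A further 12 probe sets list a mitochondrial gene together with another gene. They cover 12 mitochondrial genes, of which 11 have no member probe set and the remaining one is *nad1*. Of these probe sets 11 also list a locus on nuclear chromosome 2, which in Arabidopsis carries a large insertion of mitochondrial DNA. Signal from these copies cannot be told apart. The 12 probe sets were not counted among the members. None passed (lowest adjusted p = 0.448). The change lay above 0 for all 12 (for 10 of 12 after quantile normalization), and its median was 0.35, where 51.7% of all probe sets were above 0. *cox3*, the remaining core subunit of complex IV, had 121.5, 136.6 and 214.2 on the mutant arrays, against 101.5, 81.0 and 106.5 on the wild type arrays. Its change was 0.60 ± 0.25, but 0.37 without mutant replicate 3 and 0.018 with an index of RNA quality (3′ to 5′ ratios of control probe sets) as a covariate. *cob*, the cytochrome b of complex III, had 176.5, 165.2 and 251.9 in the mutant, against 142.5, 166.2 and 135.7 in the wild type. Its change was 0.36 ± 0.21, but 0.19 without mutant replicate 3 and 0.081 with that index. The index did not lower all 12 changes. With it, those of *cox3*, *cob*, *rps3* and *rpl16*, *rpl2* and *rps12* shrank or turned negative. Those of *atp1*, *atp9*, *rps4*, *rps7*, *rpl5* and the *nad1* probe sets grew, as *rpl5* from 0.70 to 0.99 and *rps7* from 0.36 to 0.86.

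Of the ATP synthase genes, *atp9* had a change of 0.35 ± 0.25 and *atp1* of 0.11 ± 0.16, both with overlapping groups. Without wild type replicate 3 *atp9* was at 0.034, and without wild type replicate 1 *atp1* was at −0.086. The ribosomal protein genes held 6 such probe sets, with a median of 0.34. Among them *rps4* had 317.5, 351.6 and 337.2 in the mutant, against 241.6, 288.8 and 285.9 in the wild type, and the groups did not overlap. Its change was 0.29 ± 0.14 (limma adjusted p = 0.514). The probe set of *rps3* and *rpl16*, which overlap in the mitochondrial genome, was at 0.32 ± 0.14, *rpl5* at 0.70 ± 0.36 and *rps12* at 0.01 ± 0.28. The groups did not overlap for 3 of the 12, or 25%, where 15.5% of all probe sets showed this in either direction. All 3 had the mutant arrays higher (8.11% of all probe sets). These were *cox3*, *rps4* and *nad1* 265229_s_at, which had a change of 0.40 ± 0.27. The other *nad1* probe set of the 12, 266013_s_at, had overlapping groups and a change of 0.04 ± 0.47. Whether these 12 differ from the 23 single-gene probe sets was not tested.

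**Figure D3:**
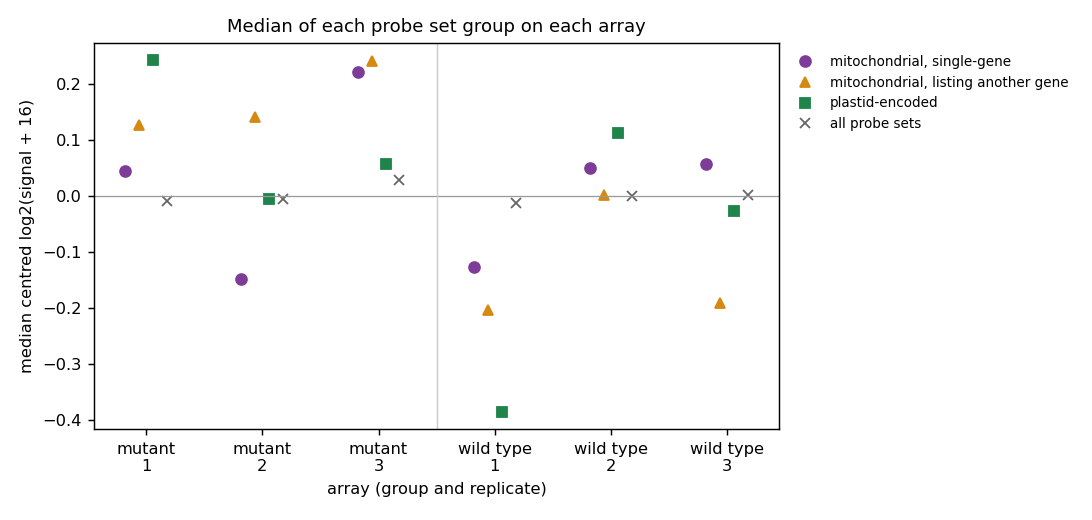
Median over each group of probe sets of the centred log2(signal + 16) value on each array, mutant replicates 1 to 3 left and wild type replicates 1 to 3 right; each probe set was centred on its mean over the 6 arrays. The single-gene mitochondrial median (circles) is lowest in mutant replicate 2 and highest in mutant replicate 3, and the plastid-encoded median (squares) is lowest in wild type replicate 1.

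Array by array, the members did not separate the groups. With each probe set centred on its mean over the 6 arrays, the median of the 23 was 0.04, −0.15 and 0.22 in mutant replicates 1 to 3, against −0.13, 0.05 and 0.06 in wild type replicates 1 to 3. Mutant replicate 2 lay lowest of all and mutant replicate 3 highest, and the wild type arrays fell between them. Mutant replicate 3 was the highest array for 9 of 23 members, where it was highest for 22.4% of all probe sets. That array also had the highest 25th percentile of signal, at 49.7, against 39.2 to 42.9 on the other arrays. How far this bears on dim members was not tested. Wild type replicate 1 was the lowest for 9 of 23, where it was lowest for 19.3% of all. Without wild type replicate 1 the median change of the members was −0.10, with 11 of 23 above 0, and over the other fits without 1 array it lay between 0.08 and 0.24. For the 12 probe sets that list another gene, the medians were 0.13, 0.14 and 0.24 in the mutant, against −0.20, 0.00 and −0.19 in the wild type, and these did not overlap.

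An index of RNA quality was higher on every mutant array than on any wild type array. A higher index means relatively more 3′ signal, not better RNA. It is the mean log2 ratio of 3′ to 5′ signal over 6 pairs of control probe sets for actin, GAPDH and ubiquitin, and it was 1.07, 1.1 and 1.33 on the mutant arrays, against 0.998, 0.878 and 0.989 on the wild type arrays. Mutant replicate 3 had the highest index and also the highest mitochondrial median. Mutant replicate 2, next in the index at 1.1, had the lowest mitochondrial median (−0.15). With the index in the model as a covariate, the median change of the 23 members was 0.05, with 13 above 0, and that of the 12 others was 0.26, with 10 above 0. Since the index did not overlap between the groups, its part and that of the genotype cannot be told apart in any fit with it. Of the green tissue markers none passed (lowest adjusted p = 0.411), but the summed signal of *LHCB4.1*, *LHCB4.2* and *LHCB4.3*, the 3 measured of 10 listed, was 28744 to 35967 in the mutant, against 25577 to 27912 in the wild type. *LHCB4.1* made up most of that sum, the groups overlapped for *LHCB4.2*, and *LHCB4.3* had a change below 0 (−0.21). All 5 measured root markers of 7 listed had changes below 0, with a median of −0.44 and none passing, and summed signals of 694 to 823 in the mutant, against 803 to 1244 in the wild type. Pollen markers (2 of 4) had summed signals of 11.9 to 83.7 in the mutant, against 10 to 34.4 in the wild type. The seed marker *ICL*, 1 of 9 listed, had 51.1 to 161.2 in the mutant, against 88.5 to 404.8 in the wild type. The part of tissue make-up in the mitochondrial values was not tested.

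Plastid-encoded genes, those of the other organelle genome, gave a median close to that of the members. It was 0.15 for the mitochondrial 23, against 0.16 over 69 plastid probe sets, of which 61 were above 0. Without wild type replicate 1 the medians were −0.10 for the mitochondrial and 0.030 for the plastid probe sets, of which 40 were then above 0, and without mutant replicate 1 they were 0.10 and 0.094. With the RNA quality index they were 0.05 and 0.34. The 15 *nad* probe sets had a median of 0.13 with 9 above 0, against 0.20 with 9 above 0 for the 10 *ndh* probe sets of the plastid NDH complex, which is related to mitochondrial complex I. No probe set of either organelle passed. As a description of co-variation, after the group means were taken out, pairs of mitochondrial members had a median correlation of 0.21 over the 6 arrays and those among the 18 that passed the filter on dim signals one of 0.33, against 0.68 for plastid pairs. All pairs share the same arrays, and the difference was not tested.

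From a list of 23 nuclear loci for the respiratory chain and ATP synthase, 9 genes were measured, by 10 probe sets. Not all are partners of the genes above. *SDH1-1*, *SDH2-1* and *SDH2-2* belong to complex II, which has no mitochondrion-encoded subunit, and *CYTC-1* and *CYTC-2* are cytochrome c genes. No subunit of complex I or of the ATP synthase was among the 10. Over these 10, log2 changes were above 0 for 3 and below 0 for 7, with a median of −0.031. With the RNA quality index 7 were above 0. AT3G15640, which codes for a COX5b subunit of cytochrome c oxidase, fell, with 900.6, 818.6 and 917.5 on the mutant arrays, against 1283.9, 1277.3 and 1310.2 on the wild type arrays. This was a log2 change of −0.55 ± 0.09 (limma adjusted p = 0.0243), so it was lower in the mutant while *cox1*, *cox2* and *cox3* all had changes above 0 that did not pass. It did not pass when any 1 of the 6 arrays was omitted (adjusted p of 0.0519 to 0.145), without the intensity trend (0.283), with the replicate number as a block (0.0524) and with the RNA quality index as a covariate (0.529), where the change itself stayed between −0.61 and −0.50. The related gene AT1G80230 was at −0.13 ± 0.18. *SDH1-1*, a subunit of complex II, had 1590.3, 1470.5 and 1351.0 in the mutant, against 1702.3, 1839.0 and 1767.9 in the wild type, a change of −0.27 ± 0.09 that did not pass (adjusted p = 0.31).

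Of the nuclear genes for other parts of mitochondrial function few were measured. In a list of 15 loci for alternative respiration and mitochondrial stress 3 were, and none passed. *NDB4*, an external alternative NADH dehydrogenase gene, had 7.2, 37.5 and 56.4 in the mutant, against 6.1, 6.8 and 7.0 in the wild type, under the 25th percentile on 5 of 6 arrays. AT2G21640, a marker of mitochondrial oxidative stress, had 162.5, 130.8 and 144.5 in the mutant, against 149.3, 96.7 and 49.6 in the wild type (change 0.59 ± 0.32, adjusted p = 0.558). The remaining gene, *NDB2*, lay above the array median on all 6 arrays. It had 502.2, 361.0 and 435.5 in the mutant, against 374.9, 582.0 and 419.4 in the wild type (change −0.07 ± 0.17). Of 11 listed loci for organelle gene expression 6 were measured and none passed, with a median of 0.05. The smallest p among them was that of AT5G46920, a nuclear maturase gene needed for splicing of mitochondrial introns, at 0.26 ± 0.14. None of the 10 listed loci for import and chaperones was on a probe set with 1 named gene.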

How the data were processed

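The authors deposited MAS5 signal intensity values on a linear scale, per the submitters' processing notes; no version was stated. The mean of each array, trimmed by 2% at both ends, was 500, so arrays carry 1 scaling factor each, which assumes a like overall level. Control probe sets (64) were left out. Genes came from the platform's annotation table and RefSeq (TAIR10.1): 13513 probe sets had 1 gene, 503 several and 8730 none listed. No probe set was paired with *FBP7*, so the mutated gene was not checked. No sequences or coordinates are given.

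From the deposited intensity, log2(signal + 16) was compared by limma 3.58.1 in R 4.3.3 (lmFit, eBayes with intensity trend, group as the single term, Benjamini-Hochberg over 22746 probe sets, threshold 0.05), with no filter. SEs combine 4 residual with 7.08 prior degrees of freedom. The comparison was also run on simulated data with independent noise drawn from limma's own variances. These held no shifts of whole arrays, so that run does not bear on such shifts. The number of arrays limits precision. The labels do not say that the replicate numbers pair the arrays.

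Members and lists were chosen with earlier results of these data known. Every member is described; named first were the brightest and the smallest p in each role, up to 3 largest changes each way above the median signal, and the smallest p of each nuclear list. Further non-member genes were picked with their values in view. The alternatives tried were a replicate block, pseudocounts of 1 and 64, the dim filter, median centring, quantile normalization, array weights, eBayes without trend or robust, the RNA quality index, 1 probe set per gene, other thresholds and each array left out.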

Additional observations from a re-analysis of the deposited data

How the results depend on the processing

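No member passed under any of the refits (lowest adjusted p 0.252), at an adjusted p under 0.1, or with 1 probe set per gene; at an unadjusted p under 0.05 there was 1. The count is thus 0 to 0 over the fits without 1 array, and 0 with the replicate number as a block. The median change was 0.11 to 0.16 with other pseudocounts, the filter, scalings and variance models, 0.15 with the replicate block and 0.18 with 1 probe set per gene, but −0.10 to 0.24 without 1 array, being −0.10 without wild type replicate 1. The mitochondrial minus the plastid median was −0.0066, ran from −0.16 to 0.033 without 1 array, and was −0.29 with the RNA quality index as a covariate; the cause was not tested. The planned contrast with open reading frames was not run, as none was a member by its annotated symbol. Same-numbered arrays deviated from their group means with correlations of −0.003, −0.002 and −0.03, so no clear shared deviation was seen. The labels do not state a pairing, and these values cannot show that there was none. With the replicate block 85 probe sets passed in place of 75. Over all probe sets 7 passed without the intensity trend, 13 with the index, 105 with a pseudocount of 1, 113 with robust eBayes, 180 with the filter, and 20 to 88 without 1 array.

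Of 23 members, 13 kept their direction throughout; 10 did not. With the RNA quality index *ccmB* was at −0.11, and *nad1* probe sets 257322_at, 257324_at, 257323_at and 257329_at at −0.61, −0.14, 0.28 and 0.50. Without 1 array, *nad4L* ran from −0.14 to 0.071, *ccmFN1* from −0.13 to 0.33, *nad9* from −0.15 to 0.40, *ccmB* from −0.014 to 0.36, *nad5* 257337_at from −0.50 to 0.17, and *nad1* 257322_at from −0.14 to 0.28, 257324_at from −0.10 to 0.26, 257325_at from −0.25 to 0.0026 and 257329_at from −0.47 to 0.0036. Of the 12 probe sets with another gene, *rps12* was at −0.0096 (quantile normalization), −0.054 (array weights) and −0.17 (index) and ran from −0.12 to 0.23 without 1 array, *rpl2* was at −0.14 (index), *atp1* ran from −0.086 to 0.23, and *nad1* 266013_s_at was at −0.19 (pseudocount 1) and −0.034 (quantile normalization) and ran from −0.42 to 0.55. Of 23 members, 5 were under the 25th percentile of signal on 4 or more arrays.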
